A study of Mus musculus with 14 samples.

Results

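The 10 genes described here mark endothelium, the lining of blood vessels: Esm1, Kdr, Flt1, Flt4, Tek, Tie1, Pecam1, Cdh5, Eng and Emcn. They were taken by name. Every probe set (a group of short array probes for one transcript) that the platform annotation assigns to one of them was included, 15 of 22626 probe sets. Where a gene had several, the brightest by its mean over all 14 arrays stood for it among 12393 genes, and the other 5 are given beside it. The rule uses names and no measured value, but the names were chosen with earlier results of these arrays known.

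RNA came from E9.5 mouse yolk sac (embryonic day 9.5), from material that was cut out of 8 µm frozen sections with a laser as primitive erythroid precursors, the nucleated red cell precursors of the early embryo. All samples carry the strain label FVB/N. There were 3 samples from KLF1-/- embryos, which lack the erythroid transcription factor KLF1, 3 labelled KLF1-/- KLF2-/-, which lack in addition the related factor KLF2, and 8 from wild-type embryos. Each sample pooled 2 to 4 yolk sacs of 2 litters and had 1 array, and the labels name no promoter or cell type that would limit either deletion. The titles are numbered in 2 runs: 1 to 8 hold 4 wild-type samples and the KLF1-/- samples, and 9 to 15 hold 4 wild-type samples and those labelled KLF1-/- KLF2-/-. The numbering has a gap between KLF1-/- replicates 6 and 8, for which the labels give no reason. Whether the runs were processed apart is not stated.

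In the yolk sac, blood islands give rise to both red cells and endothelium, and primitive red cells lie inside the vessels that this endothelium forms. Vascular endothelial growth factors act through the receptors encoded by Kdr, Flt1 and Flt4, and angiopoietins act through TEK with its relative TIE1. The junction proteins encoded by Cdh5 and Pecam1 hold endothelial cells together, endoglin (Eng) is a co-receptor for TGF-beta and BMP ligands, and endomucin (Emcn) is a surface sialomucin. Esm1 encodes endocan, a secreted proteoglycan that vascular endothelial growth factor induces and that marks the tip cells of growing vessels. KLF2 is itself a transcription factor of endothelium, where blood flow induces it.

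Array values were log2 expression, on which 1 unit is a doubling. Array medians ran from 6.55 to 6.66 and interquartile ranges from 2.31 to 3.12. Hbb-y, an embryonic beta-like globin of primitive erythroid cells, lay between 14.25 and 14.58 on all arrays. Klf1 signal lay from 9.03 to 9.79 in KLF1-/- and from 8.56 to 9.59 in the samples labelled KLF1-/- KLF2-/-, below every wild-type array (10.05 to 11.82). Klf2 signal lay from 6.36 to 7.003 in the samples labelled KLF1-/- KLF2-/- and from 5.90 to 6.59 in wild type, so it was not lower there. Where the probes of either gene lie relative to its deleted part was not stated in the labels, so these values do not test the genotype labels.

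KLF factors bind GC-rich sites, written CCNCNCCCN for KLF1. The 250 bases before the gene start are shown for Esm1, the member that differed between genotypes, and for Kdr, the main receptor of vascular endothelial growth factor. They are from RefSeq, build GRCm38.p6, at chr13:113209409-113209658 on the plus strand for Esm1 and chr5:75978456-75978705 on the minus strand for Kdr. Capitals mark matches to CCNCNCCCN on either strand, and overlapping matches run together.
Esm1: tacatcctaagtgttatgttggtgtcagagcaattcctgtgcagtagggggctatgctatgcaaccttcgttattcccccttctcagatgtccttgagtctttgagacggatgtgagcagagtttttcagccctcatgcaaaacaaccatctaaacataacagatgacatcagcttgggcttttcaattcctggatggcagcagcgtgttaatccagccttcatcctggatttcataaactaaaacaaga
Kdr: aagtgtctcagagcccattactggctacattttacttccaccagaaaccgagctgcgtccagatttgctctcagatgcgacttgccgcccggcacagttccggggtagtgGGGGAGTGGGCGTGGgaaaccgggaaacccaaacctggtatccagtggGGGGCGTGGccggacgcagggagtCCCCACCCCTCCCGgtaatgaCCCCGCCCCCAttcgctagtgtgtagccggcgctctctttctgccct
The Esm1 window held 0 matches and the Kdr window 7. Of the 8 members with an entry (Cdh5 and Pecam1 had none), 5 held a match, and of 32851 promoter windows of this length 45.8% did. A match is a string of letters and not a binding site.

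Esm1 was the member that differed. Its only probe set read 7.38, 8.26 and 7.35 in the samples labelled KLF1-/- KLF2-/-, 5.94, 6.78 and 6.36 in KLF1-/-, and from 5.41 to 6.56 with a median of 6.16 in the 8 wild-type samples. Every array labelled KLF1-/- KLF2-/- thus lay above every array of the other groups, by at least 0.79 over wild type and 0.57 over KLF1-/-, and the KLF1-/- values overlapped those of wild type. Means were 7.66 ± 0.51 (SD, n = 3) in KLF1-/- KLF2-/- and 6.07 ± 0.39 (n = 8) in wild type, a 3.02-fold difference. The log2 difference was 1.59 (SE 0.261, 95% interval 1.04 to 2.15), with an adjusted p of 0.0361 in limma with Benjamini-Hochberg adjustment over all genes, rank 8 of 12393 by p-value. In that comparison 0.0161% of all genes were called higher, and in 0.444% every mutant array lay above every wild-type array. The exact two-sided permutation p was 0.00606, the smallest that 3 against 8 arrays allow.

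Within its own number run the Esm1 difference was as large. Against wild-type samples 9 to 12 (5.41 to 6.39) it was 1.63, with the 3 mutant arrays above all 4, as was the case for 2.99% of genes. The exact permutation p was 0.0286, the smallest that 3 against 4 allow, and limma with the run as a block, which called 0.0565% of genes, gave an adjusted p of 0.0963. Wild-type samples 9 to 12 and 1 to 4 averaged 6.03 ± 0.44 and 6.11 ± 0.40 for Esm1 (SD, n = 4 each), a difference of -0.07 (limma adjusted p = 0.983). Esm1 was above its array's median on 4 of 14 arrays, the 3 labelled KLF1-/- KLF2-/- and KLF1-/- replicate 6. Without KLF1-/- KLF2-/- replicate 14, the highest, the difference was 1.30 (limma adjusted p = 0.482), and the call held in 3 of 14 fits that each left out 1 array, those without wild-type replicate 1, KLF1-/- replicate 5 or KLF1-/- replicate 6.

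KLF1 loss alone gave no such Esm1 difference. The KLF1-/- mean was 6.36 ± 0.42 (SD, n = 3), 0.29 above wild type (95% interval -0.26 to 0.85, limma adjusted p = 0.9998), and 0.26 above wild-type samples 1 to 4. Between the mutant genotypes, KLF1-/- KLF2-/- minus KLF1-/-, Esm1 differed by 1.30 (SE 0.314, 95% interval 0.63 to 1.97), rank 2 of 12393 by p-value, but the limma adjusted p was 0.9999. All arrays of one genotype lay above those of the other, as for 1.76% of genes. With the number run as a block the same difference was 1.38 (SE 0.429, limma adjusted p = 1.0). An exact permutation test of 3 against 3 arrays gave p = 0.1, the smallest it can give.

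**Figure D1:**
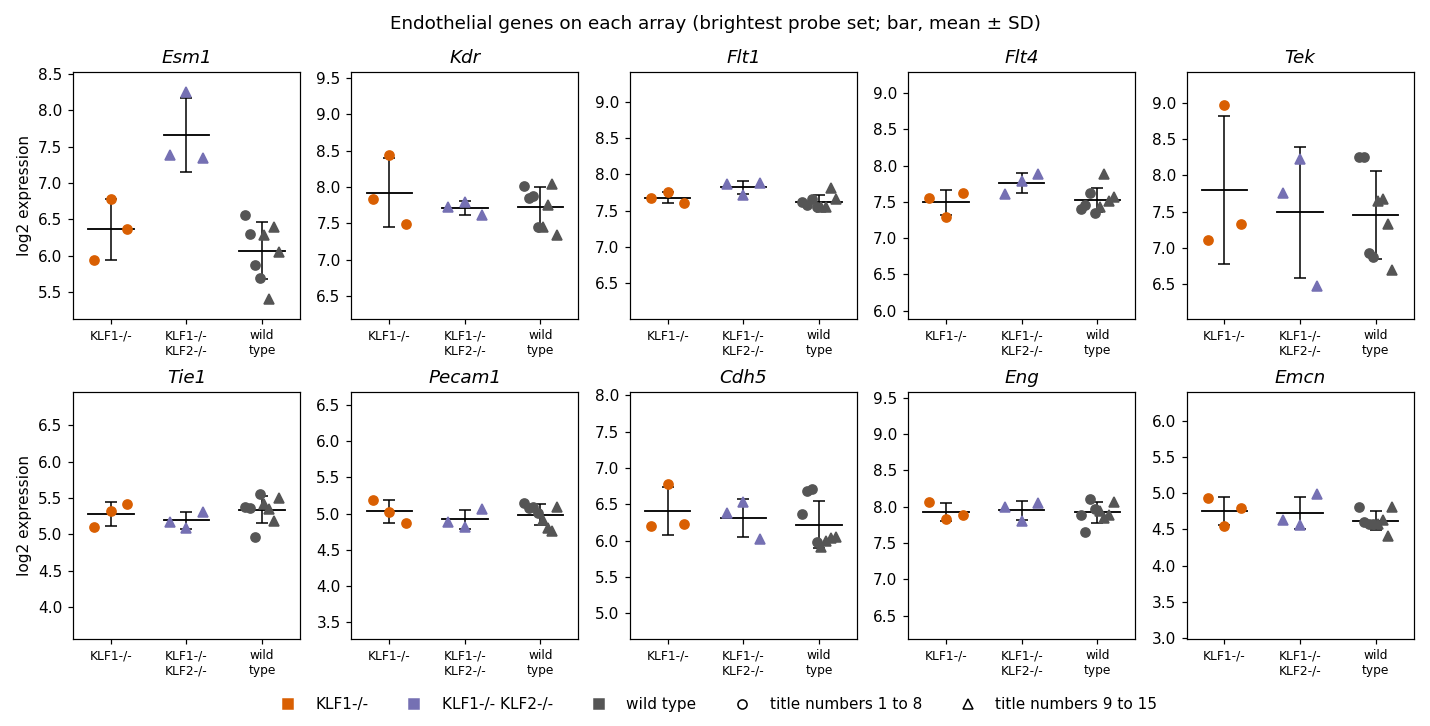
Log2 expression (y axis, of equal span in each panel) of the 10 endothelial genes at their brightest probe set, 1 point per array, by genotype (x axis); the line is the group mean and the whisker 1 SD, and circles and triangles are title numbers 1 to 8 and 9 to 15. Esm1 is the panel in which the arrays labelled KLF1-/- KLF2-/- stand above all others, at 7.35 to 8.26.

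Receptors for vascular endothelial growth factor showed no called difference. Kdr encodes VEGFR2, the main signalling receptor of this family in endothelium and a marker of the mesoderm that forms blood and vessels. Its values were 7.72, 7.79 and 7.61 in the samples labelled KLF1-/- KLF2-/-, 7.83, 8.43 and 7.50 in KLF1-/-, and 7.34 to 8.05 (median 7.80) in wild type. The groups overlapped, and KLF1-/- replicate 6 was the highest array. The Kdr difference from wild type was -0.01 (95% interval -0.42 to 0.41) in KLF1-/- KLF2-/- and 0.20 (-0.21 to 0.62) in KLF1-/-.

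Flt1 encodes VEGFR1, which binds the same ligand as KDR and limits its action, in part as a soluble form. Its brightest probe set read 7.87, 7.72 and 7.88 in KLF1-/- KLF2-/-, 7.67, 7.75 and 7.60 in KLF1-/-, and 7.54 to 7.82 (median 7.60) in wild type. In KLF1-/- KLF2-/-, 2 of 3 arrays lay above the wild-type range, whose top was replicate 11. The difference was 0.20 (SE 0.0942, limma adjusted p = 0.9999) against wild type, and 0.05 in KLF1-/-. Other Flt1 probe sets did not share it: 1419300_at gave 0.09 and 1454037_a_at gave -0.09 in KLF1-/- KLF2-/-.

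Flt4 encodes VEGFR3, the receptor for VEGF-C and VEGF-D, which is on embryonic vessels before it is restricted to lymphatics. Probe set 1444052_at read 7.60, 7.79 and 7.88 in KLF1-/- KLF2-/-, 7.56, 7.30 and 7.63 in KLF1-/-, and 7.35 to 7.88 (median 7.48) in wild type. All groups overlapped. Its difference was 0.24 (SE 0.125, limma adjusted p = 0.9999) in KLF1-/- KLF2-/- and -0.03 in KLF1-/-, while 1421442_at, the other Flt4 probe set, gave -0.08 in KLF1-/- KLF2-/- and -0.05 in KLF1-/-.

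The angiopoietin receptors did not differ between genotypes beyond their spread. Tek, which encodes TIE2, had the widest spread of the members, with 7.76, 8.23 and 6.48 in KLF1-/- KLF2-/-, 7.11, 8.98 and 7.32 in KLF1-/-, and 6.70 to 8.25 (median 7.49) in wild type. Its interval of the difference from wild type was accordingly broad, -0.94 to 1.002 in KLF1-/- KLF2-/- and -0.62 to 1.32 in KLF1-/-, so neither a higher nor a lower level by nearly 1 log2 unit lay outside it in KLF1-/- KLF2-/-. Tie1 encodes an orphan receptor that modulates TEK. It read 5.17, 5.09 and 5.31 in KLF1-/- KLF2-/-, 5.09, 5.32 and 5.42 in KLF1-/-, and 4.97 to 5.56 in wild type, and was in the lowest 25% of its array's values on 10 of 14 arrays.

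Junction genes overlapped between the genotypes. Cdh5, which encodes VE-cadherin, the adhesion molecule of endothelial junctions, read 6.38, 6.53 and 6.02 in KLF1-/- KLF2-/-, 6.21, 6.78 and 6.22 in KLF1-/-, and 5.91 to 6.71 in wild type. Wild-type samples 9 to 12 averaged 5.998 ± 0.06 and wild-type samples 1 to 4 averaged 6.43 ± 0.34 (SD, n = 4 each). The runs overlapped at replicate 4, and the difference of -0.43 did not pass (limma unadjusted p = 0.0337, adjusted p = 0.553, exact permutation p = 0.114). At an unadjusted p under 0.05 this was 1 of 10 members, beside 8.26% of all genes, and 0 genes were called. The Cdh5 difference in KLF1-/- KLF2-/- was 0.09 against all wild-type samples but 0.31 against those of its own run (limma adjusted p = 1.0 with the block). In KLF1-/- it was 0.19 against all and -0.03 within the run. A second Cdh5 probe set, 1422047_at, gave 0.03 in KLF1-/- KLF2-/- and -0.05 in KLF1-/-. Cdh5 lies on chromosome 8, which also carries Klf1 and Klf2.

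Pecam1, which encodes the adhesion molecule CD31 of endothelium and platelets, lay in the lowest 25% of values on all 14 arrays. Its readings were 4.89, 4.81 and 5.06 in KLF1-/- KLF2-/-, 5.19, 5.03 and 4.87 in KLF1-/-, and 4.76 to 5.15 in wild type. Emcn lay in the lowest 25% on all 14 arrays too, at 4.56 to 4.98 in KLF1-/- KLF2-/-, 4.54 to 4.93 in KLF1-/- and 4.40 to 4.81 in wild type. Detection calls were not used here, so how far these values stood above background is unknown.

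Endoglin is carried by early erythroid progenitors as well as by endothelium. The brightest Eng probe set, 1417271_a_at, read 7.99, 7.81 and 8.05 in KLF1-/- KLF2-/-, 8.07, 7.83 and 7.88 in KLF1-/-, and 7.65 to 8.11 (median 7.92) in wild type. The groups overlapped on this probe set. The 95% intervals of its differences, -0.21 to 0.27 in KLF1-/- KLF2-/- and -0.23 to 0.25 in KLF1-/-, were among the narrowest of the members. The second Eng probe set, 1432176_a_at, varied more, from 6.64 to 6.88 in KLF1-/- KLF2-/-, 6.59 to 7.50 in KLF1-/- and 6.21 to 7.02 in wild type. Its differences from wild type were 0.13 in KLF1-/- KLF2-/- and 0.27 in KLF1-/-.

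As a group, 1 of 10 members was higher and 0 lower in KLF1-/- KLF2-/- against wild type, where 0.0646% of all genes were called. The median member difference was 0.06, beside 0.01 over all genes, and 7 of 10 lay above 0, as did 52.1% of all genes. In KLF1-/- against wild type 0 of 10 members passed in limma, where 0.0403% of genes were called (0.0242% with the run as a block), and 0 of 10 had an unadjusted p under 0.05, beside 2.03% of all genes. The median was 0.09 beside 0.01 over all genes, and 8 of 10 lay above 0. With the run as a block the order of the medians turned, at 0.14 with 9 of 10 above 0 in KLF1-/- KLF2-/- and 0.06 with 7 of 10 in KLF1-/-. Between the mutants 0 of 10 passed, where 0.00807% of genes were called in limma. At an unadjusted p under 0.05 there was 1 member (Esm1), beside 0.597% of all genes. Averaged per array, and centred on each gene's mean, the 9 members other than Esm1 ran from -0.05 to 0.07 in KLF1-/- KLF2-/-, from -0.05 to 0.25 in KLF1-/- and from -0.15 to 0.13 in wild type. In bulk samples such as these, a different share of endothelial cells and a different amount of RNA per cell cannot be told apart.

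**Figure D2:**
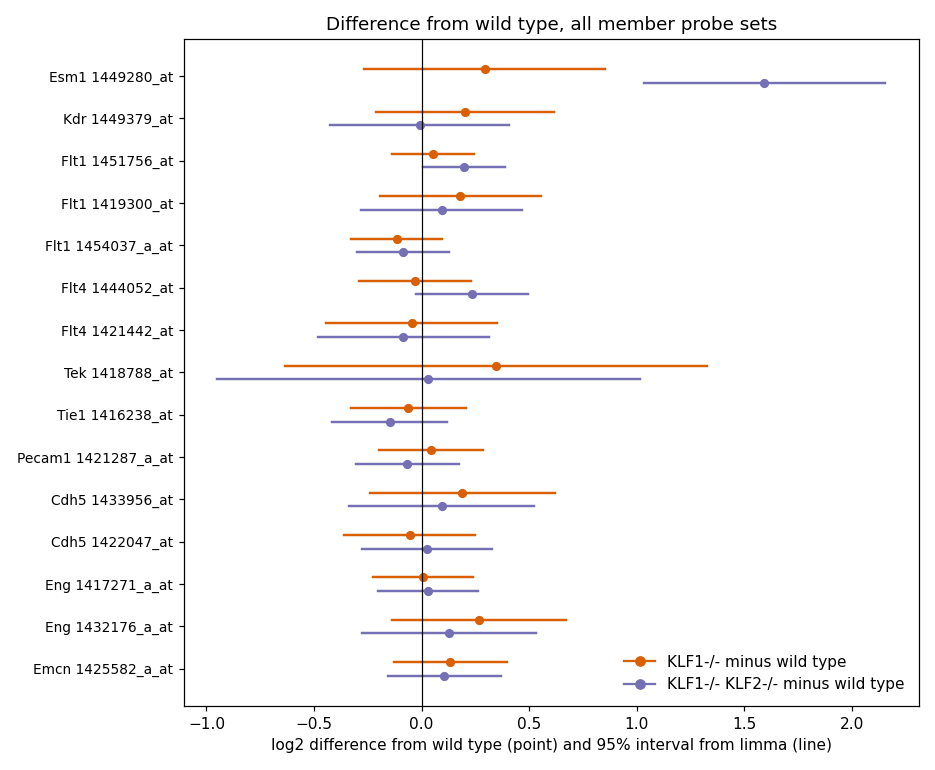
Log2 difference from wild type (x axis) for each of the 15 member probe sets (rows), in KLF1-/- and in the samples labelled KLF1-/- KLF2-/-; points are differences and lines 95% intervals from limma fitted to all 22626 probe sets. In that fit the Esm1 difference in KLF1-/- KLF2-/- is 1.59 with an adjusted p of 0.0656 (0.0221% of probe sets were called), and Flt1 1451756_at and Flt4 1444052_at lie to the right of 0 while the other probe sets of their genes lie nearer to it or below.

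Some of the members varied with the array. The interquartile range of an array's values, a measure of how widely its signals spread, was 2.38 to 2.84 in KLF1-/- KLF2-/-, 2.45 to 3.12 in KLF1-/- and 2.31 to 2.89 in wild type. Its relation to a gene's signal was computed for member probe sets only. The share of all genes related to it is thus not known, and the relations below are not shown to be particular to members. Tek was higher on arrays with a wider range (Pearson r = 0.93, permutation p = 2.0e-05, adjusted p = 0.00020 over 10 members; Spearman rho = 0.89, adjusted p = 0.00070), with r = 0.95 in samples 1 to 8, 0.93 in samples 9 to 15 and 0.88 once the 2 most extreme ranges were left out. The widest range and the highest Tek value were both those of KLF1-/- replicate 6. Eng 1417271_a_at ran the other way (r = -0.76, permutation p = 0.00166, adjusted 0.0083; rho = -0.80, adjusted p = 0.0052), with -0.74 and -0.83 within the runs and -0.81 once those 2 were left out. Kdr gave r = 0.64 (permutation p = 0.0138, adjusted 0.0461; rho = 0.46, adjusted p = 0.245), which rested on the 2 most extreme arrays, since r was 0.21 without them. For Emcn rho passed and r did not (rho = -0.67, permutation p = 0.0105, adjusted 0.0349; r = -0.55, adjusted p = 0.104).

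Esm1 did not pass (r = 0.35, permutation p = 0.224, adjusted 0.36; rho = 0.40, adjusted p = 0.268), though within samples 1 to 8, which hold no array labelled KLF1-/- KLF2-/-, r was 0.79, and 0.27 in samples 9 to 15. With the interquartile range as a covariate, chosen after the data were seen, the Esm1 difference in KLF1-/- KLF2-/- was 1.56 (SE 0.211, limma adjusted p = 0.0103). Cdh5, Flt1, Flt4, Pecam1 and Tie1 did not pass by either measure at their brightest probe set.

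The same relation was computed for the other 5 probe sets of the members, after the data were seen. Eng 1432176_a_at ran opposite to 1417271_a_at (r = 0.62, permutation p = 0.0194, adjusted 0.0242 over 5 relations), but rho did not pass (0.31, adjusted p = 0.274), and r was 0.31 once the 2 most extreme ranges were left out. Flt4 1421442_at fell as the range widened (r = -0.91, permutation p = 1.0e-05, the smallest these permutations can give, adjusted 5.0e-05; rho = -0.88, adjusted p = 0.00050), with -0.93 in samples 1 to 8, -0.90 in samples 9 to 15 and -0.87 without the 2 arrays. Flt1 1419300_at was higher on wider arrays (r = 0.83, permutation p = 0.00029, adjusted 0.00072; rho = 0.81, adjusted p = 0.00167), with 0.93 and 0.74 within the runs and 0.74 without the 2 arrays.

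Flt1 1454037_a_at was lower on them (r = -0.60, permutation p = 0.0251, adjusted 0.0251; rho = -0.64, adjusted p = 0.0216), with -0.80 and -0.54 within the runs, but rested on the 2 arrays, since r was -0.23 without them. Cdh5 1422047_at was lower too (r = -0.64, permutation p = 0.0135, adjusted 0.0225; rho = -0.69, adjusted p = 0.0135), with -0.62 and -0.72 within the runs and -0.59 without the 2 arrays. For Flt1 and Eng the direction of the relation thus differed between probe sets of the same gene.

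**Figure D3:**
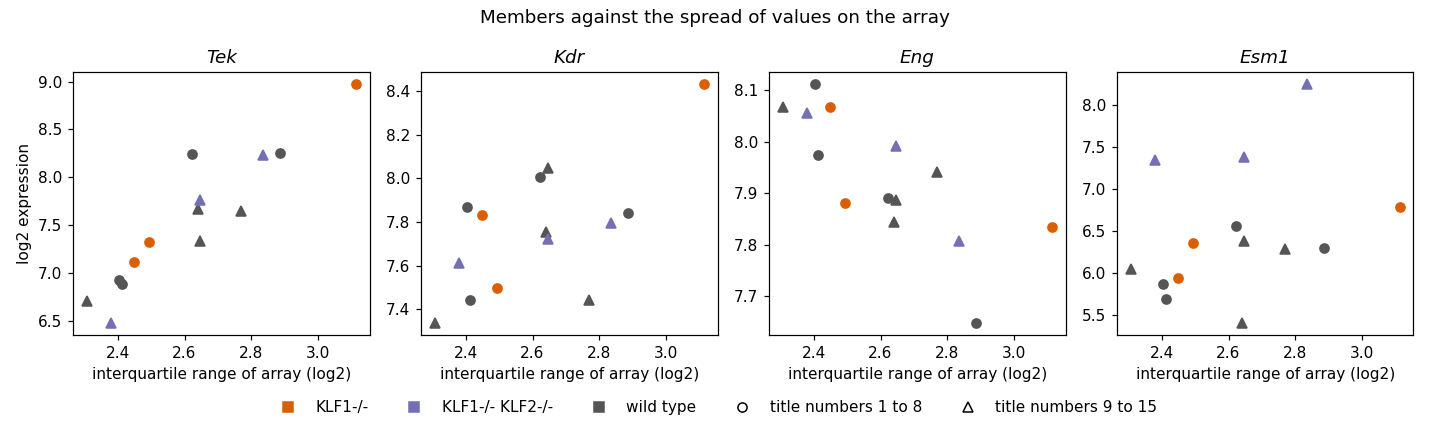
Log2 expression (y axis) of Tek, Kdr, Eng and Esm1 against the interquartile range of all values on the same array (x axis, log2), 1 point per array, coloured by genotype and shaped by title number. Eng is shown at 1417271_a_at; Tek climbs and Eng declines along the x axis, while the 3 arrays labelled KLF1-/- KLF2-/- sit above the others for Esm1 at ranges of 2.38 to 2.84.

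Ligands, partners and further markers were examined as lists, and limma called 0 of their genes in any of the 3 comparisons. In KLF1-/- KLF2-/- against wild type the unadjusted p was under 0.05 for 1 gene of the VEGF list, 1 of the tip cell list and 2 of the transcription factors, and in KLF1-/- for 1 of the transcription factors, with 0 in the other vascular lists. Over all genes the shares at that level were 2.32% in KLF1-/- KLF2-/- and 2.03% in KLF1-/-. Of 15 measured genes of VEGF ligands, co-receptors and signalling, 4 lay above 0 in KLF1-/- KLF2-/- against wild type, with a median of -0.05. Vegfc, a ligand of FLT4, averaged 7.60 ± 0.80 in KLF1-/- KLF2-/- (n = 3) and 6.71 ± 0.58 in wild type (SD, n = 8), a difference of 0.89 (limma unadjusted p = 0.0363, adjusted p = 0.9999). Vegfa, the ligand of KDR and FLT1, averaged 8.88 ± 0.07 in KLF1-/- KLF2-/- and 9.28 ± 0.47 in wild type (SD), a difference of -0.40, where a second probe set gave 0.17.

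Of 7 angiopoietin and Tie partners, 3 lay above 0, with a median of -0.02, and with the run as a block 6 did (median 0.06). Angpt2, the context-dependent ligand of TEK, averaged 5.69 ± 0.09 in KLF1-/- KLF2-/- and 5.61 ± 0.14 in wild type (SD), and Dok2, an adaptor that binds TEK, 6.55 ± 0.11 in KLF1-/- KLF2-/- and 6.42 ± 0.19 in wild type. Of 15 genes of the endoglin and ALK1 pathway, 7 lay above 0 (median -0.01), and with the run as a block 8 did (median 0.07). Tgfbr2, the type II TGF-beta receptor, averaged 8.41 ± 0.36 in KLF1-/- KLF2-/- and 8.04 ± 0.40 in wild type, and its other probe sets gave differences of -0.02 and 0.0037. Bmp10, a ligand of ALK1, averaged 6.32 ± 0.05 in KLF1-/- KLF2-/- and 6.43 ± 0.10 in wild type.

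Of 13 junction partners 10 lay above 0, with a median of 0.21. F11r, which encodes the junction molecule JAM-A, averaged 9.26 ± 0.05 in KLF1-/- KLF2-/- and 8.90 ± 0.32 in wild type (SD), a difference of 0.36, with -0.01 on another probe set. Esam, an adhesion molecule of endothelium and platelets, read 7.93, 7.93 and 7.88 in KLF1-/- KLF2-/-, above all wild-type arrays (7.51 to 7.82), as for 0.444% of genes. The Esam difference was 0.22 (limma adjusted p = 0.9999), and 0.15 with the run as a block. In KLF1-/- Esam read 7.64, 8.03 and 7.42.

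Of 20 tip cell and Notch genes, 11 lay above 0 in KLF1-/- KLF2-/- (median 0.04). Igfbp3, which encodes a binding protein of insulin-like growth factors, read 7.81, 8.22 and 7.09 there, against 6.01 to 7.09 in wild type. Its difference was 1.16 (SE 0.322, limma adjusted p = 0.659) in KLF1-/- KLF2-/- and 0.24 in KLF1-/-. Lama4, a laminin chain of vessel basement membrane, averaged 5.88 ± 0.14 in KLF1-/- KLF2-/- and 6.06 ± 0.17 in wild type.

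Endothelial transcription factors lay above 0 for 14 of 18 (median 0.12). Hhex, a homeobox factor of blood and endothelial progenitors, read 8.28, 8.96 and 8.30 in KLF1-/- KLF2-/- and 8.00, 8.24 and 8.25 in KLF1-/-, against 7.01 to 7.97 in wild type. Every mutant array lay above every wild-type array, as was the case for 0.315% of genes in KLF1-/- and 0.444% in KLF1-/- KLF2-/-. The differences were 0.79 in KLF1-/- KLF2-/- (limma adjusted p = 0.442) and 0.45 in KLF1-/- (limma adjusted p = 0.9998). Nr2f2, a nuclear receptor of venous identity, averaged 6.64 ± 0.21 in KLF1-/- KLF2-/- and 6.33 ± 0.14 in wild type, and its other probe sets gave -0.11 and 0.06. Among 21 further endothelial markers 15 lay above 0 (median 0.16), with She, an endothelial adaptor gene, at 7.01 ± 0.30 in KLF1-/- KLF2-/- and 6.65 ± 0.31 in wild type (SD). One of the 21, Mmrn2, was matched through a synonym to the measured symbol Emilin3 (difference -0.09). Whether that probe set reports Mmrn2 was not tested.

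Markers of other cells were measured beside Esm1, and their part in its difference was not tested. The mean of 13 megakaryocyte and platelet markers was 7.18 to 7.52 per array in KLF1-/- KLF2-/-, 7.02 to 7.17 in KLF1-/- and 6.65 to 7.001 in wild type. The mutant arrays lay above all wild-type arrays, but those of KLF1-/- only just (7.016 against 7.001). How often other lists of 13 genes separate in this way was not computed. In KLF1-/- KLF2-/- against wild type 11 of 13 lay above 0 (median 0.40), 0 were called by limma and 7 had an unadjusted p under 0.05, beside 2.32% of all genes. The platelet chemokine Ppbp averaged 8.08 ± 0.56 in KLF1-/- KLF2-/- and 6.55 ± 0.39 in wild type, a difference of 1.53 (limma adjusted p = 0.121). Vwf, which encodes von Willebrand factor of platelets and endothelium, averaged 6.76 ± 0.88 in KLF1-/- KLF2-/- and 5.52 ± 0.33 in wild type, a difference of 1.23 (limma adjusted p = 0.454). The mean of 16 mesenchyme and mesothelium markers was 8.97 to 9.15 per array in KLF1-/- KLF2-/-, 8.54 to 9.27 in KLF1-/- and 8.44 to 9.21 in wild type, with 14 above 0 in KLF1-/- KLF2-/- (median 0.27). Of the matrix genes, Sparc averaged 10.71 ± 0.26 in KLF1-/- KLF2-/- and 10.05 ± 0.50 in wild type (another probe set gave -0.03), and Dcn averaged 8.82 ± 0.06 in KLF1-/- KLF2-/- and 8.32 ± 0.41 in wild type.

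The mean of 18 macrophage and myeloid markers was 6.71 to 6.76 in KLF1-/- KLF2-/-, 6.38 to 6.48 in KLF1-/- and 6.37 to 6.76 in wild type (12 above 0). The lysosomal gene Laptm5 averaged 9.47 ± 0.24 in KLF1-/- KLF2-/- and 8.05 ± 0.83 in wild type (other probe sets gave 0.04 and 0.09), and the myeloid adaptor gene Tyrobp 7.37 ± 0.18 in KLF1-/- KLF2-/- and 6.90 ± 0.29 in wild type.

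Visceral endoderm markers had array means of 10.36 to 10.57 in KLF1-/- KLF2-/-, 10.45 to 10.97 in KLF1-/- and 9.90 to 11.32 in wild type. In KLF1-/- KLF2-/- against all wild-type samples 5 of 15 lay above 0 (median -0.06). With the run as a block the direction turned, with 13 of 15 above 0 (median 0.18). Among them the endoderm factor gene Foxa2 averaged 7.81 ± 0.33 in KLF1-/- KLF2-/- and 7.97 ± 0.30 in wild type, and the apolipoprotein gene Apob 9.84 ± 0.75 in KLF1-/- KLF2-/- and 10.35 ± 1.31 in wild type. The Apob difference was -0.51 against all wild-type samples and 0.44 with the block, and that of Foxa2 was -0.15 and 0.0019. The 13 erythroid markers had means of 9.87 to 10.53 in KLF1-/- KLF2-/-, 10.04 to 10.17 in KLF1-/- and 9.89 to 10.90 in wild type, with 8 above 0 (median 0.03) and 0 called. With the run as a block 5 of 13 lay above 0 in KLF1-/- KLF2-/- (median -0.15). Tfrc, the transferrin receptor gene, averaged 9.87 ± 0.45 in KLF1-/- KLF2-/- and 11.40 ± 0.68 in wild type (limma adjusted p = 0.352), and Slc4a1, the band 3 gene, 11.37 ± 0.69 in KLF1-/- KLF2-/- and 12.25 ± 0.47 in wild type. Their differences from wild type were alike in the 2 mutants, at -1.53 and -0.88 in KLF1-/- KLF2-/- and -1.49 and -0.92 in KLF1-/-. Other probe sets gave -0.77 and -0.23 for Tfrc and -0.93 and 0.09 for Slc4a1 in KLF1-/- KLF2-/-. The lowest value of any probe set on any array was 3.29, so a value above 0 does not show that a marker of these lists was detected.

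The 5 genes with the profile closest to Esm1 over the 14 arrays, by the root mean square gap between values centred on each gene's mean, were Ccng2, Col14a1, Igfbp3, Cpe and Hprt. Their gaps were 0.39, 0.41, 0.41, 0.43 and 0.44 log2 units, beside a median of 0.77 over all genes. A gene that did not vary at all would have a gap of 0.73. Since they were chosen for likeness to Esm1, their genotype differences are a description. Ccng2, a cyclin of quiescent cells, averaged 9.29 ± 0.54 in KLF1-/- KLF2-/-, 8.71 ± 0.35 in KLF1-/- and 8.24 ± 0.28 in wild type. Col14a1, a fibril-associated collagen, averaged 8.23 ± 0.42 in KLF1-/- KLF2-/-, 7.45 ± 0.39 in KLF1-/- and 7.32 ± 0.32 in wild type. Cpe, which encodes a peptide-processing enzyme, averaged 7.71 ± 0.24 in KLF1-/- KLF2-/-, 6.71 ± 0.67 in KLF1-/- and 6.99 ± 0.25 in wild type. Hprt, of purine salvage, averaged 11.20 ± 0.52 in KLF1-/- KLF2-/-, 9.95 ± 0.35 in KLF1-/- and 10.18 ± 0.40 in wild type. Other probe sets of Ccng2, Col14a1 and Cpe gave 0.07, 0.11 and -0.26 for KLF1-/- KLF2-/- minus wild type, so these 3 profiles rest on the brightest probe set.

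**Figure D4:**
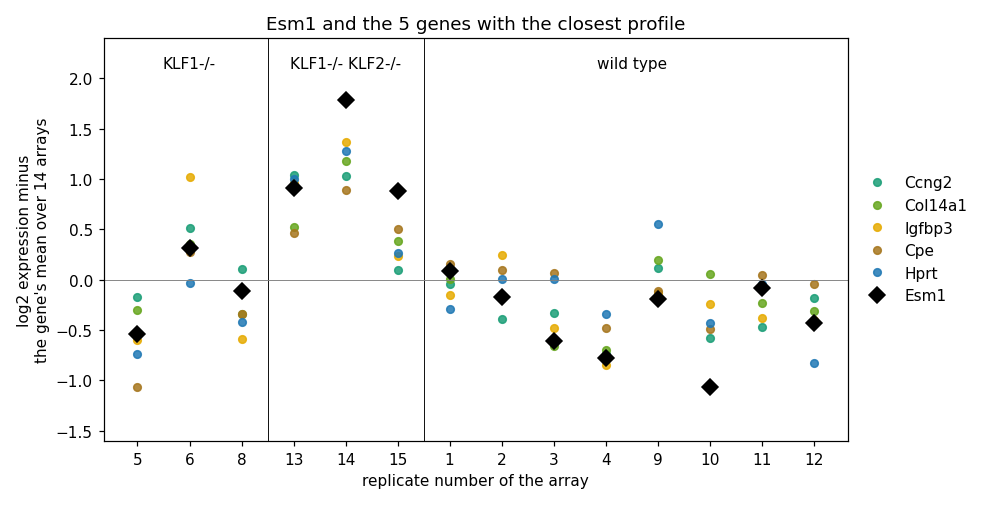
Log2 expression minus the gene's mean over 14 arrays (y axis) for Esm1 (black diamonds) and the 5 genes with the closest profile (coloured points), by array (x axis, replicate number), with vertical lines between genotypes. On the arrays labelled KLF1-/- KLF2-/- all 6 genes lie above their own means, and Esm1 stands highest on replicate 14.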

How the data were processed

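The deposited table holds log2 values per probe set of Affymetrix mouse expression arrays. Per the labels' protocols, 10 to 20 ng of RNA per sample was amplified in 2 cycles from the poly(A) tail. Per the submitters' processing notes, the authors used GCOS, RMA, affy and limma, versions not given. These tools can background-correct and normalize, which compresses weak signals. Which of these steps gave the deposited log2 values is not known. Interquartile ranges differed between arrays, from 2.31 to 3.12, as did lower quartiles, from 5.25 to 5.53. The probe set values thus did not have equal distributions. Whether probe intensities were quantile-normalized over all arrays before they were summarized cannot be read from these values. How precise a difference can be depends here on how many arrays each group has. A genome build is not stated for the values.

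Of 22690 probe sets 64 controls were left out. The annotation gave 1 gene for 20380, several for 691 and none for 1555. Limma 3.58.1 in R 4.3.3 (lmFit, eBayes, two-sided) was fitted to 12393 genes on 14 arrays with a mean per genotype and no block, with Benjamini-Hochberg adjustment over all genes and calls at an adjusted p under 0.05; all probe sets were fitted likewise. The fit was tested on simulated data. Exact permutation tests compared single genes, and 100000 permutations tested correlations (Python 3.11.15, scipy 1.17.1). No deposited sample was dropped. P-values set a difference against the spread between these samples and treat the samples as independent. Whether replicates shared litters is not given, so that independence is not known.

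Members and lists were chosen with earlier results of these data known. Genes named are all members, the called genes or the 2 with the smallest p of each list in KLF1-/- KLF2-/- against wild type, and the 5 nearest to Esm1. Hbb-y, Klf1 and Klf2 are named in addition, to set their values beside the labels, and the Klf1 and Klf2 values do not test the genotype labels. Alternatives changed the number run, probe sets, dim genes, normalization, variance model, array weights, a Gapdh covariate and the arrays used.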

Additional observations from a re-analysis of the deposited data

Results flagged for a closer look

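Flt1 on its brightest probe set, 1451756_at, had 1 wild-type array apart from the others. Replicate 11 read 7.82, and the gap to the next wild-type array was a large part of the group's range by Dixon's test. That test was run on the 8 wild-type arrays of 15 probe sets, and chance marks about 1 in 20 groups. Without this array the Flt1 difference in KLF1-/- KLF2-/- was 0.23 in place of 0.20 (limma adjusted p = 0.9999).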

How the results depend on the processing

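The Esm1 difference in KLF1-/- KLF2-/- against wild type was above 0 in 25 of 25 alternatives and past the threshold in 9. Its adjusted p in limma was 0.0963 with the title run as a block (log2 1.63), 0.0656 over all probe sets (1.59), 0.0642 with a gene's probe sets averaged (1.59), 0.0579 with only the 2 groups (1.59) and 0.0699 without the arrays at both ends of the interquartile range (1.59, added after the data were seen). Under these 5 settings limma called 0 members in that comparison (1, 2, 1, 1 and 1 at an unadjusted p under 0.05, in the order given). Leaving out 1 array at a time gave 1.30 to 1.75 with an adjusted p of 0.0352 to 0.482, and 0 to 1 members called. The 9 alternatives past the threshold include the fit with array weights, which did not converge. They also include the interquartile range as a covariate, added after the data were seen.

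Genes called in KLF1-/- minus wild type numbered 5, and 3 with the block, 3 with only the 2 groups, 1 without both end arrays (KLF1-/- replicate 6 and wild-type replicate 12) and 1 to 6 without 1 array (1 without KLF1-/- replicate 6 or 8, and 3 without wild-type replicate 10 or 11). In KLF1-/- KLF2-/- minus wild type they numbered 8, and 5 over all probe sets, 2 with averaged probe sets, 15 with the interquartile range as a covariate and 0 to 8 without 1 array (0 without KLF1-/- KLF2-/- replicate 13 or 14, with 194 and 171 at an unadjusted p under 0.05, 4 without replicate 15, and 5, 2, 3 and 4 without wild-type replicates 1, 3, 10 and 11). Between the mutants 1 was called, and 0 with the block (197 at an unadjusted p under 0.05), over all probe sets (142), with the Gapdh covariate (95), with 2 groups (71) and without both end arrays (210). Without 1 array it was 0 to 1, with 1 only when KLF1-/- replicate 5 was left out and 59 to 186 genes at an unadjusted p under 0.05. Array weights did not converge, running from 0.172 to 58.7, and called 353, 2347 and 6029 genes and 0, 3 and 6 members in the 3 comparisons, in the order above.

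Of 741 recomputed member values 73 changed direction, none of a value called in the reported fit. In KLF1-/- minus wild type the block gave 0.040 for Flt4, -0.052 for Pecam1 and -0.027 for Cdh5; array weights gave -0.23 for Kdr, -0.0099 for Flt1, -0.16 for Tek, 0.074 for Tie1, -0.0032 for Pecam1 and -0.0034 for Eng; quantile normalization gave -0.022 for Flt1 and -0.059 for Eng; the Gapdh covariate gave 0.00059 for Flt4. Without both end arrays Kdr was -0.11, Flt4 0.075, Tek -0.35 and Cdh5 -0.023. Leaving out 1 array gave -0.053 to 0.42 for Kdr, -0.096 to 0.069 for Flt4, -0.24 to 0.69 for Tek, -0.13 to 0.030 for Tie1, -0.039 to 0.12 for Pecam1 and -0.062 to 0.054 for Eng.

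In KLF1-/- KLF2-/- minus wild type the block gave 0.063 for Kdr and 0.030 for Pecam1, array weights -0.021 for Flt4 and quantile normalization -0.018 for Tek and -0.0045 for Eng. For Tek the Gapdh covariate gave -0.046, the interquartile range -0.067 and the fit without both end arrays -0.076. Leaving out 1 array gave -0.063 to 0.040 for Kdr, -0.34 to 0.54 for Tek, -0.016 to 0.24 for Cdh5, -0.021 to 0.10 for Eng and -0.024 to 0.19 for Emcn.

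Between the mutants the block gave 0.083 for Pecam1, 0.34 for Cdh5, -0.0049 for Eng and 0.0070 for Emcn. Array weights gave 0.20 for Kdr, 0.42 for Tek, -0.011 for Flt4, 0.0020 for Pecam1 and 0.15 for Cdh5. Eng was -0.060 with averaged probe sets, -0.0056 with the interquartile range and -0.024 without both end arrays, where Kdr was 0.044, Tek 0.27 and Cdh5 0.093. Leaving out 1 array gave -0.42 to 0.044 for Kdr, -0.69 to 0.27 for Tek, -0.21 to 0.093 for Cdh5, -0.029 to 0.096 for Eng and -0.16 to 0.059 for Emcn. The cause of these changes was not tested.

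The filter on the dimmest 25% left out Tie1, Pecam1 and Emcn and kept 7 members. No paired analysis was possible because no replicate number occurs in more than 1 genotype. Signal over background limits the dim members, whose detection calls were not used here.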
